A study of Mus musculus with 12 samples.

Results

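Adult neurogenesis and granule cell genes are described here through 10 genes, *Dcx*, *Sox11*, *Neurod1*, *Eomes*, *Igfbpl1*, *Top2a*, *Mki67*, *Prox1*, *Dsp* and *C1ql2*, taken by symbol from the 24985 genes counted by bulk RNA-seq of mouse dorsal hippocampus. All 10 were present, and 8 of them were among the 14742 genes that passed the filter on low counts. *Eomes* and *Igfbpl1* did not pass and are given by their counts. The levels below are CPM, read counts of a gene scaled by the number of reads counted on genes in that mouse and by TMM.

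The 12 mice were wild-type C57Bl6/J animals, 3 in each of 4 groups, all labelled male, and injected on 1 side of the brain at 6 months of age. PBS-injected mice received the vehicle alone. Tau-injected mice received 1 µg AD tau, insoluble tau purified from the frontal cortex of people with Alzheimer's disease, which seeds aggregation of the mouse's own tau. Each injection was combined with control chow or with chow holding 5% acetate by weight for the 6 months that followed. The right dorsal hippocampus was taken 24 h after a test of remote fear memory, so recall is shared by the 4 groups, and the animals sequenced had been chosen as representative of larger cohorts. The tissue was a slice with CA1, CA2, CA3 and dentate gyrus together, so fewer cells of a type and less RNA per cell cannot be told apart for any gene below.

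New granule cells are made throughout life in the dentate gyrus. Radial-glia-like stem cells give rise to dividing intermediate progenitors, which express the cycling genes *Mki67* and *Top2a* and the transcription factor *Eomes* (Tbr2). Their daughters switch on *Neurod1*, *Sox11* and *Igfbpl1* and then *Dcx*, the microtubule-associated protein doublecortin that is the usual mark of migrating, immature neurons. *Prox1*, the transcription factor that sets and keeps granule cell identity, is shared by young and mature granule cells, while *Dsp* (desmoplakin) and *C1ql2* (a secreted C1q-family protein of mossy fibre synapses) mark mature ones. Neurogenesis falls with age in mice, and only a very small share of the cells of a middle-aged dentate gyrus is at an immature stage.

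For *Prox1*, *Dsp* and *C1ql2*, the granule cell genes, the 250 bases before a RefSeq start of each are shown, read 5′ to 3′ on the strand of the gene (GRCm38.p6). The levels of these genes varied together from mouse to mouse, and the part of these sequences in that was not tested. *Prox1* lay at chr1:190170828-190171077 on the minus strand, the upstream of 2 RefSeq starts, *Dsp* at chr13:38151044-38151293 on the plus strand and *C1ql2* at chr1:120340332-120340581 on the plus strand.
Prox1: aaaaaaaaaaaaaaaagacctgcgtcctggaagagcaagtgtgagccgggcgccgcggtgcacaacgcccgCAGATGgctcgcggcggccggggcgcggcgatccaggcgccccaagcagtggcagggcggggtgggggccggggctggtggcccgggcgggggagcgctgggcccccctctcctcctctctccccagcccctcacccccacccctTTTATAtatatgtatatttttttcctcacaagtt
Dsp: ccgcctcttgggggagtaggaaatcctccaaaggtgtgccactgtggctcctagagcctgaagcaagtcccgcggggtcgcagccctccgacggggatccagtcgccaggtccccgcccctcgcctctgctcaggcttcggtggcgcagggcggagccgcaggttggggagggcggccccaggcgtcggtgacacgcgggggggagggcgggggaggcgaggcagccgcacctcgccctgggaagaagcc
C1ql2: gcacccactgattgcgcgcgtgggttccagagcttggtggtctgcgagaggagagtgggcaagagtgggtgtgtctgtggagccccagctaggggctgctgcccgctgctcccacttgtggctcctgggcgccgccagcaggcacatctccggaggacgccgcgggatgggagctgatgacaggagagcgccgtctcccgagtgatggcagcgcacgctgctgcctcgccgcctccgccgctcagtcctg
Capitals mark matches, on either strand, to CAGATG, the E-box form bound by proneural factors such as Neurod1, or to TATAAA, the TATA box. This *Prox1* window held 1 match to each, and *Dsp* and *C1ql2* held none of them, nor CAGCTG or CCAAT. Of all 32851 mouse promoter windows of this length, 14.4% held CAGATG, 12.4% TATAAA, 13.0% CAGCTG and 33.8% CCAAT. The 3 windows were GC-rich, at 64.8%, 72.4% and 68.8% G or C for *Prox1*, *Dsp* and *C1ql2*. The window of the other *Prox1* start, at chr1:190169516-190169765, held none of the 4 motifs and was 56.0% G or C.

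Sequencing depth ran from 12983233 to 20218340 counted reads a mouse. No pair of mice within a group was close enough in counts to be 1 library read again. All lists of CA1, CA3 and mature granule cell markers were detected in every mouse with none of their genes at 0. Samples differed in what else they held. Summed over 6 CA1 markers, levels were 488 to 652 CPM in the PBS-injected control-diet group and 667 to 1047 CPM in the other 9 mice, and summed over 6 CA3 markers they were 432 to 522 CPM and 221 to 418 CPM. Thalamus markers summed to 167 CPM in PBS-injected control-diet mouse 2 and to 50 to 77 CPM elsewhere. Choroid plexus markers summed to 480 CPM in tau-injected acetate-diet mouse 3, to 204 CPM in tau-injected control-diet mouse 1 and to 65 to 137 CPM in the remaining mice. Although every mouse is labelled male, *Xist* had 13583 to 25991 reads in each of them and 4 Y-linked genes had 0 reads in total.

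**Figure D1:**
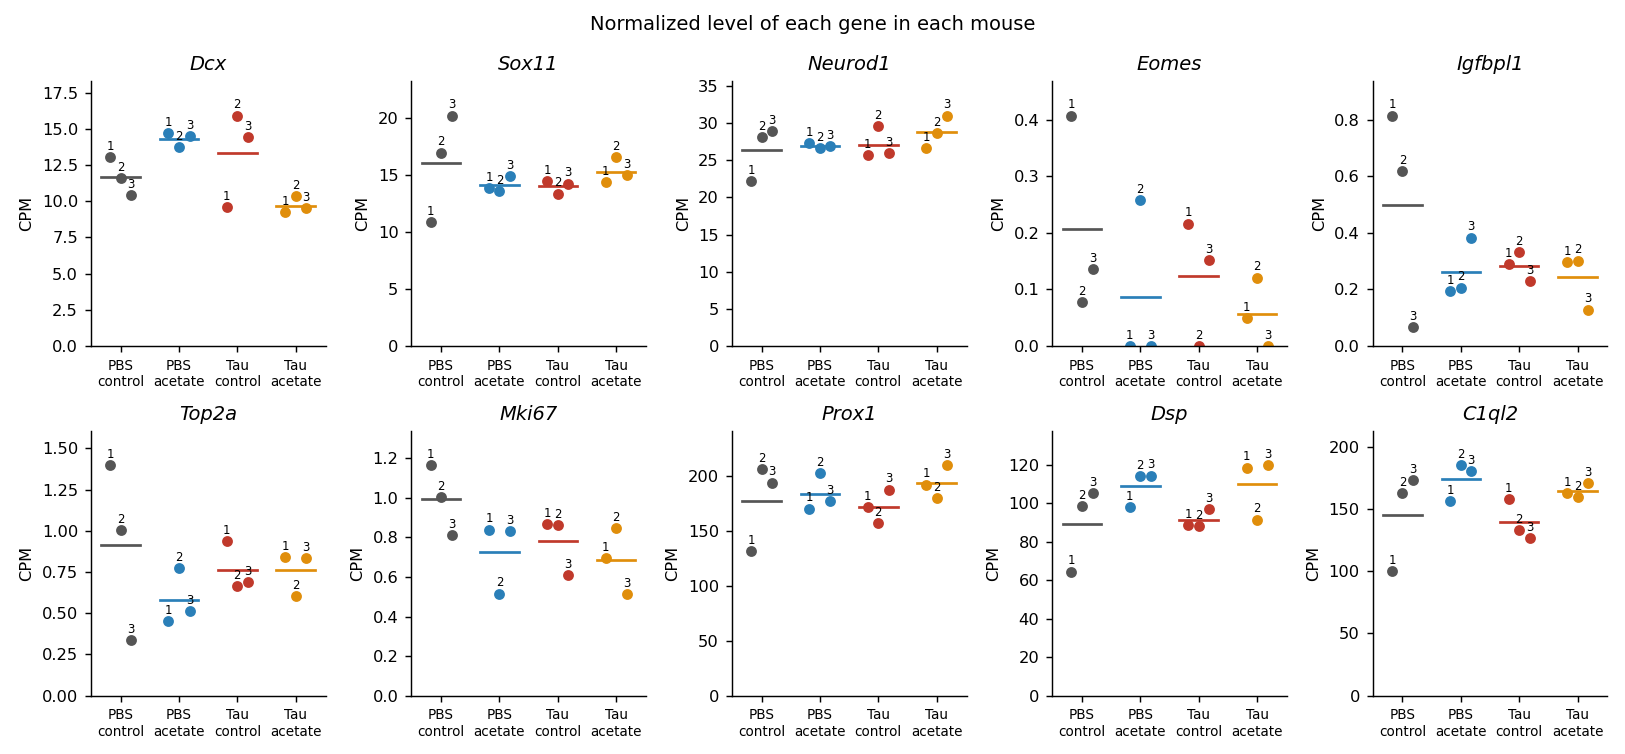
Level of each of the 10 genes in each mouse (vertical axis, CPM after TMM scaling, starting at 0) by group, where points are mice with their number and lines are group means of 3 mice. *Dcx* is lowest in the tau-injected acetate-diet mice and in 1 tau-injected control-diet mouse, and mouse 1 of the PBS-injected control-diet group has the lowest *Sox11*, *Neurod1*, *Prox1*, *Dsp* and *C1ql2*.

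Per kilobase of exon, the scale on which genes can be compared, *C1ql2* and *Prox1* were the highest members, *Dsp* and *Neurod1* lay close together below them, and *Sox11* and *Dcx* were lower again. *C1ql2* averaged 77.9 CPM per kb over the 12 mice, *Prox1* 21.6, *Dsp* 10.3 and *Neurod1* 10.0. *Sox11* stood at 1.79 and *Dcx* at 0.969 CPM per kb. *Igfbpl1* averaged 0.0990, *Top2a* 0.0836, *Mki67* 0.0792 and *Eomes* 0.0284 CPM per kb. *Neurod1*, the highest of the immature genes, is also expressed by mature granule cells and shares exon sequence on the same strand with *Cerkl*.

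*Dcx* (chromosome X, 143855842 to 143933311, minus strand, GRCm38) had the smallest p of the tested members in each of the 5 comparisons, which share groups, so that each group enters 2 of the 4 pairwise ones. In PBS-injected mice its level was 13.0, 11.6 and 10.4 CPM on the control diet and 14.7, 13.7 and 14.5 CPM on the acetate diet. After tau it was 9.59, 15.9 and 14.4 CPM on the control diet and 9.27, 10.3 and 9.51 CPM on the acetate diet. Every acetate-fed mouse thus lay above every control-fed mouse after PBS, and every acetate-fed mouse lay below 2 of the 3 control-fed mice after tau, with mouse 1 of the tau-injected control-diet group inside the acetate range. Group means ± SD (n = 3) ran from 14.3 ± 0.53 CPM in PBS-injected acetate-diet mice through 13.3 ± 3.3 in tau-injected control-diet mice and 11.7 ± 1.3 in PBS-injected control-diet mice to 9.71 ± 0.57 in tau-injected acetate-diet mice. Neighbours in that order differed by less than the larger of their SDs, except for the lowest pair. Counting noise alone gives a coefficient of variation of 7.20% for *Dcx*, against 14.8% measured within groups. Summed oligodendrocyte markers averaged lower in the 2 groups with the higher *Dcx* means, at 4412 to 6074 CPM in PBS-injected acetate-diet, 4667 to 5642 in tau-injected control-diet, 7038 to 9075 in PBS-injected control-diet and 5328 to 8565 in tau-injected acetate-diet mice, and their part in the *Dcx* levels was not tested.

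On the acetate diet, the *Dcx* level of tau-injected mice lay below that of PBS-injected mice. The highest tau-injected mouse, at 10.3 CPM, lay below the lowest PBS-injected mouse, at 13.7 CPM. The log2 fold change was −0.56 (standard error 0.144, 95% interval −0.86 to −0.26), which did not pass the threshold over all genes (edgeR quasi-likelihood test with Benjamini-Hochberg adjustment, adjusted p = 0.173). None of the 8 tested members was called at an adjusted p below 0.1 by edgeR, where 0.136% of all tested genes were called. *Dcx* alone had an unadjusted p below 0.05, where 10.3% of genes did, and was the 1 member whose 3 mice did not overlap the other 3, which held for 16.2% of genes. DESeq2's Wald test on the 12 mice called *Dcx* and no other member (adjusted p = 0.0991, log2 fold change −0.56), and called 0.674% of genes. Over the 20 alternatives tried for this value, the log2 fold change of *Dcx* ran from −0.61 to −0.52. Its adjusted p ran from 0.0484 to 0.453 over those that gave one. Leaving out tau-injected control-diet mouse 1, which is in neither group compared, gave an adjusted p of 0.0871. Without tau-injected acetate-diet mouse 3, the library with the high choroid plexus sum, the log2 fold change was −0.55. Its exact two-sided permutation p was 0.1, the smallest that 3 mice against 3 allow.

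On the control diet, *Dcx* did not separate tau-injected from PBS-injected mice. The log2 fold change was 0.19 (standard error 0.146, 95% interval −0.12 to 0.49; edgeR adjusted p = 0.745), and the 3 tau-injected mice spanned the range of the PBS-injected ones. No member was called by edgeR (0.0136% of all tested genes were), by DESeq2 (0.688% of genes), or at an unadjusted p below 0.05 by edgeR (9.65% of genes). No member had groups without overlap either, against 13.5% of genes.

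In PBS-injected mice, *Dcx* was higher on the acetate diet in 3 of 3 mice, with a log2 fold change of 0.29 (standard error 0.143, 95% interval −0.01 to 0.59). It did not pass the threshold (edgeR adjusted p = 0.262). No member was called in either direction by edgeR, in the comparison with the most calls among the 5, where 8.84% of tested genes passed, 3.99% higher and 4.85% lower. DESeq2 likewise called no member, and 9.29% of genes. No member had an unadjusted p below 0.05 with edgeR, where 20.8% of genes did, and *Dcx* was the only member without overlap between groups, where 26.3% of genes had none.

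In tau-injected mice *Dcx* averaged lower on the acetate diet, with a log2 fold change of −0.46 (standard error 0.147, 95% interval −0.77 to −0.15; edgeR adjusted p = 0.276). Groups overlapped because of tau-injected control-diet mouse 1, at 9.59 CPM. That mouse also had the second-highest choroid plexus sum, 204 CPM, whose part in its *Dcx* level was not tested. Without it the log2 fold change was −0.64 and *Dcx* was called (edgeR adjusted p = 0.0961), in a fit that called 22 of 14925 genes. Without mouse 2 of the same group the log2 fold change was −0.31. Over the alternatives that gave *Dcx* an adjusted p, that value ran from 0.0961 to 0.611. No member was called by edgeR with all mice, where 0.0611% of genes were, and none by DESeq2, which gave an adjusted p for only 4 of the 10 members, *Dcx* not among them, and called 2.19% of genes. *Dcx* was the member with an unadjusted p below 0.05 in edgeR, where 10.9% of genes had one. *C1ql2* was the 1 member without overlap, and 14.4% of genes had none.

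The interaction of diet and injection tests whether the effect of the acetate diet depended on the injection. For *Dcx* the difference of the 2 log2 fold changes was −0.75 (standard error 0.205, 95% interval −1.18 to −0.32), just outside the threshold with edgeR (adjusted p = 0.105). With DESeq2 *Dcx* passed (adjusted p = 0.0654), and over 17 alternatives its adjusted p ran from 0.0511 without tau-injected control-diet mouse 1, where the value was −0.94, to 0.284 without mouse 2 of that group. It was the 1 member called by DESeq2, where 2.8% of genes were called, and the 1 member with an unadjusted p below 0.05 with edgeR, where 13% of genes had one. No member passed edgeR's adjusted threshold, which 1.56% of genes passed. Other members had interaction values between −0.02 and 0.65, and *Sox11* had the smallest adjusted p among them, 0.648, at 0.30 (standard error 0.227).

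**Figure D2:**
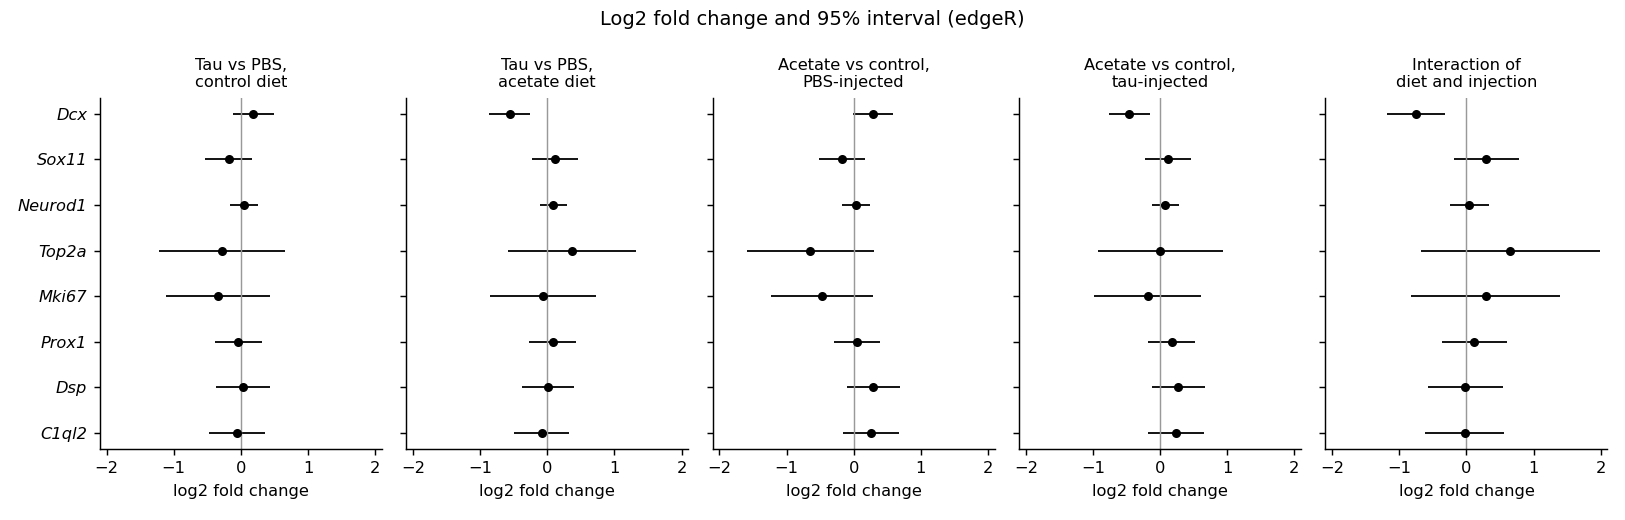
Log2 fold change (horizontal axis) of the 8 members that passed the filter in the 5 comparisons, where points are edgeR estimates from 12 mice and bars are 95% intervals. The *Dcx* interval lies left of 0 for tau against PBS on the acetate diet, for acetate in tau-injected mice and for the interaction, while the intervals of the other 7 members cross 0 in all 5 panels.

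*Dcx* was also set against mature granule cells, by taking its log2 CPM relative to the mean log2 CPM of *Prox1*, *Dsp* and *C1ql2* in the same mouse, a scale added after the values were seen. On the acetate diet tau-injected mice were lower, by a mean difference of −0.56 with no overlap (exact permutation test, two-sided p = 0.1, the smallest possible). For acetate in tau-injected mice the difference was −0.65 with overlap (exact p = 0.2). For acetate in PBS-injected mice it was 0.07 with overlap (exact p = 0.9), and the ratio was highest of the 12 in control-diet mouse 1, whose granule cell genes were low. For tau on the control diet the difference was 0.16 (exact p = 0.9).

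The genes whose levels followed *Dcx* most closely over the 12 mice were on none of the marker lists used here. By Pearson correlation of log2 CPM among 14741 other tested genes they were *Grik2* (r = 0.89), a kainate receptor subunit, *Nsd2* (0.87), a histone methyltransferase, *Mthfsd* (0.86), *Arl4a* (0.86), a small GTPase, and *Zfp697* (0.85). These 12 points share 4 group means and 1 dissection each, and the 5 genes were picked from the same mice. After group means were subtracted they had r = 0.66 to 0.75, at ranks 217 to 578, so other genes led within groups. In the order over the 12 mice the other members were far down, from *Mki67* at rank 5420 (r = 0.12) to *Sox11* at rank 13217 (r = −0.43).

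*Sox11* and *Neurod1* are transcription factors of immature neurons, and *Sox11* lay in a narrow range in all groups except PBS-injected control-diet mice. *Sox11* was at 10.9, 17.0 and 20.2 CPM in PBS-injected control-diet mice and at 13.9, 13.6 and 14.9 CPM on the acetate diet. Tau-injected mice had 14.5, 13.4 and 14.3 CPM on the control diet and 14.4, 16.6 and 15.0 CPM on the acetate diet. The PBS-injected control-diet mice thus held both the lowest and the highest *Sox11* level, and the other 9 mice lay between 13.4 and 16.6 CPM. The difference between diets after PBS was −0.17 (standard error 0.160; edgeR adjusted p = 0.585). Without PBS-injected control-diet mouse 1 it was −0.40 and was called (edgeR adjusted p = 0.0738, in a range of 0.0738 to 0.934 over 19 alternatives), and the control group then rested on 2 mice. That fit called 727 of 14917 genes.

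*Neurod1* was at 22.2, 28.1 and 28.9 CPM in PBS-injected control-diet mice and at 27.3, 26.6 and 27.0 CPM on the acetate diet. After tau it was at 25.7, 29.6 and 25.9 CPM on the control diet and at 26.6, 28.6 and 31.0 CPM on the acetate diet. The groups overlapped in each of the 4 pairwise comparisons, in that of the diets after PBS only through mouse 1 of the control-diet group, and the 4 log2 fold changes between groups lay between 0.03 and 0.09. With a standard error of 0.095 to 0.098, *Neurod1* was the most precisely measured member, and its 4 intervals between groups together ran from −0.17 to 0.29.

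*Eomes* and *Igfbpl1*, which mark intermediate progenitors and early neuroblasts, were near the limit of detection. *Eomes* had 7, 1 and 2 reads in PBS-injected control-diet mice, 0, 5 and 0 on the acetate diet, 3, 0 and 2 in tau-injected control-diet mice and 1, 2 and 0 on the acetate diet. It was thus at 0 in 4 of 12 mice, which allows up to 3 reads, or 0.149 to 0.232 CPM across the mice. *Igfbpl1* had 14, 8 and 1 reads in PBS-injected control-diet mice and 3, 4 and 6 on the acetate diet, and in tau-injected mice 4, 5 and 3 reads on the control diet and 6, 5 and 2 on the acetate diet. The highest count of both genes was in mouse 1 of the PBS-injected control-diet group. Fitted without the filter, no comparison of either gene passed the threshold, and 95% intervals for *Eomes* were wide, such as −3.00 to 1.36 for the effect of tau in control-fed mice, so a difference was not detectable at this depth.

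*Mki67* and *Top2a*, which encode the proliferation antigen Ki-67 and topoisomerase II alpha of dividing cells, were counted by 5 to 24 reads per mouse. *Mki67* was at 1.16, 1.00 and 0.81 CPM in PBS-injected control-diet mice and at 0.84, 0.52 and 0.83 CPM on the acetate diet. After tau it was at 0.87, 0.86 and 0.61 CPM on the control diet and at 0.69, 0.85 and 0.51 CPM on the acetate diet. Its highest 2 levels were both in PBS-injected control-diet mice, and that group overlapped each of the others. *Top2a* was at 1.40, 1.00 and 0.34 CPM in those mice, at 0.45, 0.77 and 0.51 CPM in PBS-injected acetate-diet mice, at 0.94, 0.66 and 0.69 CPM in tau-injected control-diet mice and at 0.84, 0.60 and 0.83 CPM in tau-injected acetate-diet mice. The PBS-injected control-diet mice held both the highest and the lowest *Top2a* level of the 12. The difference furthest from 0 for either gene between groups was that of *Top2a* for acetate in PBS-injected mice, −0.65 (standard error 0.450, 95% interval −1.59 to 0.30; edgeR adjusted p = 0.442). Counting noise gave a coefficient of variation of 28.3% for *Mki67* and 28.9% for *Top2a*, against 21.2% and 39.6% measured within groups, so the measured spread of *Mki67* was below that of counting.

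*Prox1*, *Dsp* and *C1ql2*, the granule cell genes, were the most abundant members, and none was called in any comparison. *Prox1* was at 132, 206 and 194 CPM in PBS-injected control-diet mice and at 170, 203 and 177 CPM on the acetate diet. After tau it was at 172, 157 and 188 CPM on the control diet and at 192, 179 and 210 CPM on the acetate diet. Mouse 1 of the PBS-injected control-diet group stood below all others. The groups overlapped in each pairwise comparison, although without that mouse the other PBS-injected control-diet mice (194 and 206 CPM) lay above the tau-injected control-diet mice (157 to 188 CPM). Its 4 log2 fold changes lay between −0.04 and 0.17, the highest for acetate in tau-injected mice (standard error 0.154; edgeR adjusted p = 0.752).

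*Dsp* was at 64.5, 98.4 and 105 CPM in PBS-injected control-diet mice and at 98.0, 114 and 114 CPM on the acetate diet. After tau it was at 88.4, 87.9 and 96.7 CPM on the control diet and at 118, 91.5 and 120 CPM on the acetate diet. Acetate-fed mice averaged higher after either injection, with overlap in both. The change on the log2 scale was 0.29 (SE 0.175; edgeR adjusted p = 0.390) after PBS and 0.27 (SE 0.175; edgeR adjusted p = 0.625) after tau, neither past the threshold. With 1 mouse left out it ran from 0.10 to 0.43 after PBS and from 0.21 to 0.39 after tau.

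*C1ql2* was at 100, 163 and 173 CPM in PBS-injected control-diet mice and at 156, 185 and 180 CPM on the acetate diet. After tau it was at 158, 133 and 127 CPM on the control diet and at 163, 160 and 171 CPM on the acetate diet. After tau the lowest acetate-fed mouse lay just above the highest control-fed mouse, whereas after PBS the groups overlapped. The log2 fold change was 0.24 (standard error 0.184, 95% interval −0.18 to 0.65; edgeR adjusted p = 0.707) in tau-injected mice and 0.26 (standard error 0.183; edgeR adjusted p = 0.465) in PBS-injected mice. The interaction of the 2 was −0.02 (standard error 0.259), so no difference in the response of *C1ql2* to diet was measured, within an interval of −0.61 to 0.56. With 1 mouse left out, the diet effect ran from 0.054 to 0.41 after PBS and from 0.17 to 0.34 after tau.

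The 3 granule cell genes varied together from mouse to mouse. Over the 12 mice, *Prox1* and *Dsp* had a Pearson r of 0.86 and a Spearman rho of 0.76 (permutation p = 0.00103 and 0.00593, adjusted over 28 pairs of members to 0.0148 and 0.0653). *Dsp* and *C1ql2* had r = 0.86 and rho = 0.81 (permutation p = 0.00106 and 0.00211, adjusted 0.0148 and 0.0591). *Prox1* and *C1ql2* had r = 0.79 and rho = 0.67 (permutation p = 0.00544 and 0.0198, adjusted 0.0381 and 0.139). With the 2 mice farthest from the median of the first gene left out, r was 0.56, 0.64 and 0.26 in that order, so the *Prox1* and *C1ql2* relation rested on those mice. Within groups, after group means were subtracted, r was 0.89, 0.81 and 0.81. Those values keep PBS-injected control-diet mouse 1, the lowest in all 3 genes, without which r over the remaining mice was 0.66, 0.65 and 0.49. *Mki67* went against *Dsp*, with r = −0.74 and rho = −0.75 (permutation p = 0.00538 and 0.00700, adjusted 0.0381 and 0.0653). That r was −0.67 without the 2 farthest mice, −0.61 without PBS-injected control-diet mouse 1 and −0.66 within groups. However, *Mki67* is counted by few reads, and its coefficient of variation within groups, 21.2%, was below the 28.3% of counting noise alone. *Dcx* had r between −0.43 and 0.12 with the other 7 tested members, and *Dcx* with *Prox1* had r = −0.39 and rho = −0.50 (permutation p = 0.211 and 0.103, adjusted 0.296 and 0.294).

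**Figure D3:**
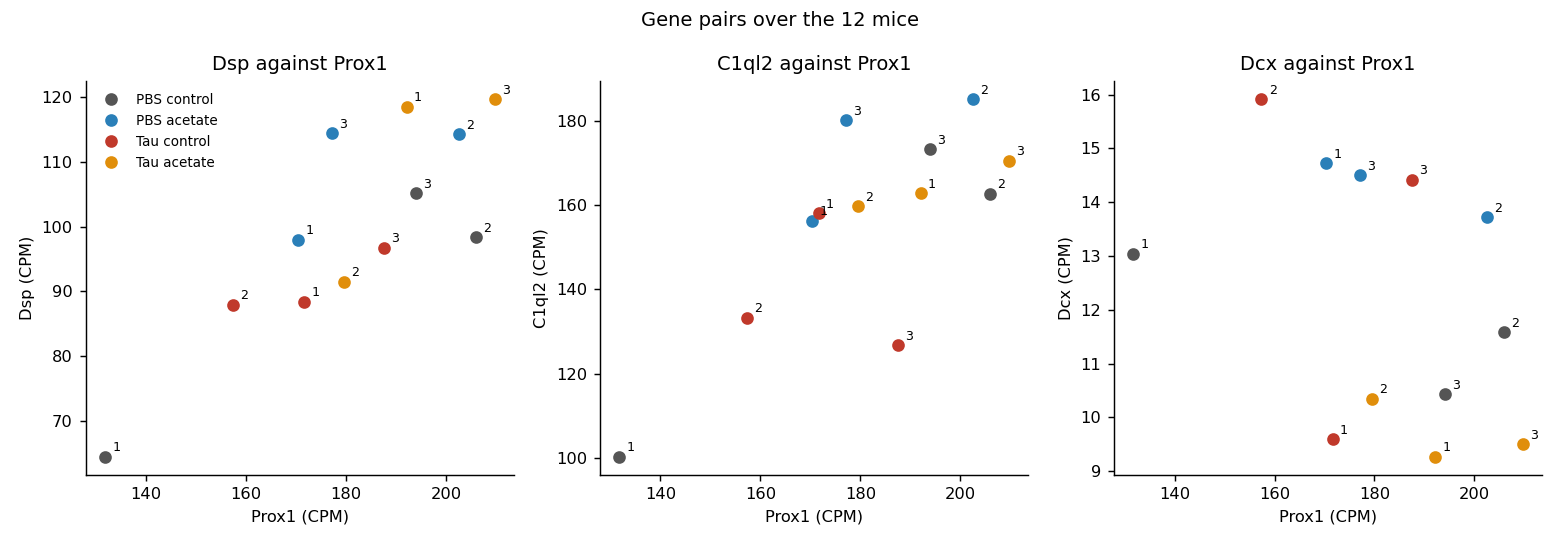
*Dsp*, *C1ql2* and *Dcx* (vertical axes, CPM) against *Prox1* (horizontal axes, CPM) in the 12 mice, coloured by group and numbered by mouse; axes do not start at 0. *Dsp* and *C1ql2* are higher in mice with more *Prox1*, with PBS-injected control-diet mouse 1 at the lower left of both panels, and *Dcx* shows no such relation.

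PBS-injected control-diet mouse 1 stood apart in these genes. It had the highest level of all 12 mice for *Eomes*, *Igfbpl1*, *Top2a* and *Mki67* and the lowest for *Sox11*, *Neurod1*, *Prox1*, *Dsp* and *C1ql2*. Among 13 mature granule cell markers, a list with *Calb1*, *Tdo2*, *Dock10* and *Bcl11b* beside the 3 members, it was lowest in 11, or 84.6%, whereas it was lowest in 8.57% and highest in 8.23% of all tested genes. The list summed to 1044 CPM in that mouse and to 1251 to 1564 CPM in the other 11. The same mouse had the highest sum of 7 oligodendrocyte markers, 9075 CPM against 4412 to 8565 CPM elsewhere, and whether this goes with its low granule cell sum was not tested.

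The wider stages were read from lists of markers. None of the 13 mature granule cell genes, all tested, was called in any comparison. For acetate in PBS-injected mice their signs were 11 higher and 2 lower with a median log2 fold change of 0.11, and for acetate in tau-injected mice 10 higher and 3 lower with a median of 0.18, where the median of all genes was about 0. The signs after PBS include control-diet mouse 1, lowest in 11 of the 13 genes. Its list sum was 1044 CPM, against 1470 and 1472 in its group and 1361 to 1533 on the acetate diet. Without that mouse *Prox1* was at −0.12. The smallest p of the list was that of *Calb1*, calbindin of mature granule cells and also of other neurons, after acetate in PBS-injected mice, at 0.33 (standard error 0.14; edgeR adjusted p = 0.214), and again for tau on the control diet, at 0.40 (edgeR adjusted p = 0.404). All 6 CA1 markers had a positive sign in both comparisons, and the part of other neurons in the *Calb1* levels was not tested.

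Among 20 immature neuron genes, of which 16 were tested, 2 were lower with acetate in PBS-injected mice, where 4.85% of all tested genes were called lower. These were *Cd24a*, a cell surface glycoprotein that is also made by ependymal cells, at −1.11 (standard error 0.26; edgeR adjusted p = 0.0346), and *Stmn2*, a growth-associated microtubule regulator also made by mature neurons, at −0.48 (standard error 0.12; edgeR adjusted p = 0.0611). *Cd24a* went from 8.03, 7.72 and 10.0 CPM on the control diet to 3.16, 4.69 and 4.02 CPM on the acetate diet. *Dcx*, at 0.29 in the same comparison, had the opposite sign. The list as a whole had 6 positive and 10 negative signs and a median of −0.08. In tau-injected mice none of the 16 was called for the diet, and the smallest p was that of *Dcx*, as it was for tau on the acetate diet and for the interaction.

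Among 18 dividing cell genes, of which 12 were tested, *Mcm5*, a subunit of the replicative helicase, was higher with acetate in PBS-injected mice at 0.49 (standard error 0.16; edgeR adjusted p = 0.0943), in a comparison where 3.99% of all tested genes were called higher, while 8 of the 12 had a negative sign. Among 10 neural stem cell genes, of which 9 were tested, *Lpar1*, a lysophosphatidic acid receptor that oligodendrocytes also express, was lower at −0.72 (standard error 0.21; edgeR adjusted p = 0.0856), as were 4.85% of all tested genes. It was at 54.3, 43.0 and 41.3 CPM on the control diet and at 33.9, 27.0 and 23.3 CPM on the acetate diet, and the 7 oligodendrocyte markers were all lower in the same comparison, 2 of them called, at a median of −0.59. None of the 4 stage lists had a gene called in the other 4 comparisons. Their smallest p belonged to *Id4*, *Mcm5*, *Stmn1* and *Calb1* for tau on the control diet, to *Nes*, *Cenpf*, *Dcx* and *Tdo2* for tau on the acetate diet, to *Id4*, *Tpx2*, *Dcx* and *Dock10* for acetate after tau, and to *Lpar1*, *Mcm5*, *Dcx* and *Calb1* for the interaction.

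**Figure D4:**
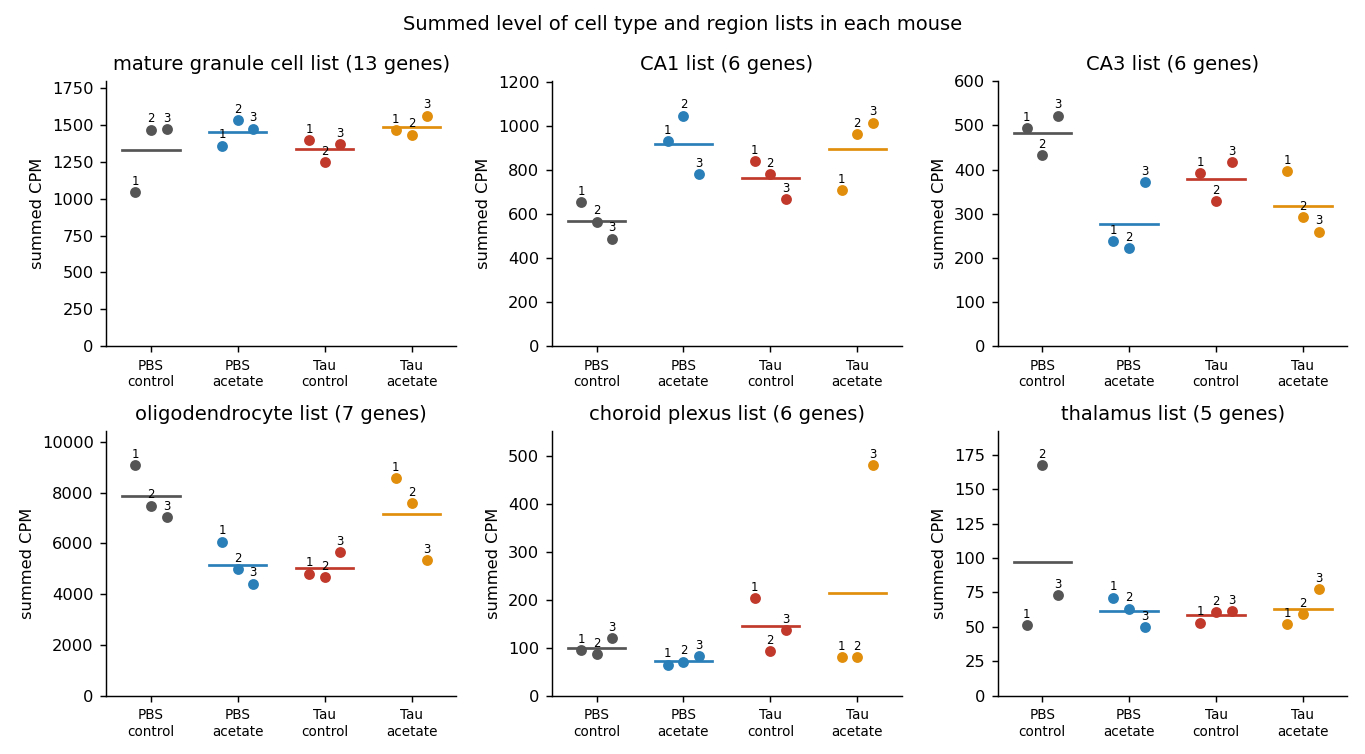
Summed level of marker lists in each mouse (vertical axes, CPM, starting at 0) by group, where points are mice with their number and lines are group means of 3 mice. The mature granule cell sum is lowest in PBS-injected control-diet mouse 1 (1044 CPM), CA1 sums are lowest and CA3 sums highest in the PBS-injected control-diet group, and choroid plexus and thalamus sums are each set apart in 1 mouse.

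Markers of neighbouring cells were called for the diet after PBS, where 3.99% of all tested genes were higher and 4.85% lower. With acetate, 4 of 6 CA1 markers were higher, among them *Pou3f1* at 0.61 and *Fibcd1* at 0.68 on the log2 scale, and 4 of 6 CA3 markers were lower, among them *Iyd* at −1.27, *Nectin3* at −1.01 and *Grik4* at −0.54, all with an edgeR adjusted p below 0.1. Of 3 tested Cajal-Retzius markers *Reln* at 0.50 and *Ndnf* at 0.49 were higher. The third, *Trp73*, was not called but was lower without overlap. It was at 5.87 to 7.38 CPM on the control diet and at 3.04 to 4.98 CPM on the acetate diet. Of 5 oligodendrocyte precursor markers *Cspg4* (0.29) was higher and *Gpr17* (−0.31) lower, and of 5 astrocyte markers *Slc1a3* (0.23) was higher and *Aqp4* (−0.20) lower. Lower were *Folr1* (−1.73), 1 of 6 choroid plexus markers, *Tnnt1* (−2.42), 1 of 5 thalamus markers, and *Mobp* (−0.73) and *Cldn11* (−0.65) of oligodendrocytes. *Tnnt1* was at 1.40, 13.9 and 4.40 CPM on the control diet, highest in mouse 2 with its high thalamus sum, and at 1.10, 1.03 and 1.47 CPM on the acetate diet, so the groups overlapped, and without that mouse its log2 fold change was −1.26 (edgeR adjusted p = 0.0952). Calls depended on single mice. Of the 24 genes of all stage and cell type lists called for acetate after PBS, 0 were called without PBS-injected acetate-diet mouse 2, 1 without mouse 1 of that group and 2 without PBS-injected control-diet mouse 3, against 11 to 23 without any of the other 9 mice, in fits added after the values were seen. Neither the 5 microglia markers nor 8 markers of inhibitory neurons and of subventricular neuroblasts, which also make *Dcx*, had a call in any comparison. These 8 markers summed to 490 to 512 CPM in PBS-injected control-diet mice, 534 to 561 on the acetate diet, 537 to 553 in tau-injected control-diet mice and 496 to 565 on the acetate diet. The largest parts of that sum were the inhibitory neuron genes *Gad1* (group means 319 to 352 CPM) and *Gad2* (154 to 173 CPM), so it says little about neuroblasts. The part of these cells in the *Dcx* levels was not tested. For the interaction, *Aqp4* (0.35) and *Folr1* (2.92) were the marker genes called, both of them lost without any of 6 of the 12 mice, and no marker was called in the remaining 3 comparisons.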

How the data were processed

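Poly(A) RNA of 12 mice was sequenced from 300 ng of total RNA. Per the paper and the submitters' processing notes, the authors used STAR 2.5.2a for alignment (GRCm38), counted reads on exons per gene on the reverse strand with HTSeq 0.9.1, and deposited the raw counts, without normalization, used here. The labels and the paper name different library kits, directional and not. No column was left unused. The 10 members and the 15 marker lists were chosen with earlier results of these data known.

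Genes were kept by filterByExpr (minimum count 10, minimum total 15), scaled by TMM, and tested by the quasi-likelihood F test of edgeR 4.0.16 (robust fit, 1 mean per group, 12 mice, R 4.3.3). The Benjamini-Hochberg adjustment took in 14742 genes, and calls were made below 0.1. DESeq2 1.42.0 (Wald test) served as the other tool, with NA kept where it gives no adjusted p. Mice of a group are taken as separate animals, and no batch is labelled. Scripts were first tested on simulated data in which 200 genes had known changes.

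Named genes were the members, list genes called in a comparison (at most 3 per list and direction) or else the smallest p of a list, and the 5 genes most correlated with *Dcx*. *Trp73* was named in addition, as the uncalled tested marker of its list. Some marker list results are not reported here. Correlations used 100000 permutations. Gene positions come from GENCODE M21 and promoters from RefSeq, which matched 9 of 10 members.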

Additional observations from a re-analysis of the deposited data

Results flagged for a closer look

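The diet effect on *Dcx* had opposite signs after the 2 injections. Each acetate-fed mouse lay above the control-diet mean after PBS and each lay below it after tau, and the difference of the 2 log2 fold changes was −0.75 (edgeR adjusted p = 0.105 for the interaction, which missed the threshold). Relative to *Prox1*, *Dsp* and *C1ql2*, the diet difference after PBS was 0.07, with overlap (exact permutation test, two-sided p = 0.9).

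*Sox11* showed the reverse arrangement, with each acetate-fed mouse below the control-diet mean after PBS and above it after tau, and an interaction of 0.30 (edgeR adjusted p = 0.648). The PBS-injected control-diet mean of *Sox11* includes both the lowest and the highest mouse of the 12. The share of all tested genes with such an arrangement was not counted, so neither gene can be said to stand out by it.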

How the results depend on the processing

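Members and *Dcx* were recomputed with DESeq2's size factors, no filter on low counts, DESeq2 on 12 mice or on the 6 compared, edgeR on the 6 compared, a threshold of 0.05, a block for the replicate number, and each mouse left out in turn. *Dcx* kept its sign throughout. It crossed the threshold for tau against PBS on the acetate diet with DESeq2 on 12 mice (−0.56), edgeR on 6 mice (−0.56) and DESeq2 on 6 mice (−0.56, adjusted p = 0.0484), and for the interaction without the filter (−0.75, adjusted p = 0.0691) and with DESeq2 (−0.75). In each of these the number of members called went from 0 to 1. Without tau-injected control-diet mouse 1 *Dcx* was called for tau against PBS on the acetate diet (adjusted p = 0.0871), for acetate after tau (adjusted p = 0.0961) and for the interaction (−0.94, adjusted p = 0.0511). In that order 12, 22 and 113 of 14925 genes were called. Members called ran from 0 to 1 over the mice left out, except for tau on the control diet, where none was called. The 1 call for acetate after PBS was *Sox11* without PBS-injected control-diet mouse 1, where 727 of 14917 genes were called.

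With 1 mouse left out, *Dcx* ran from 0.03 to 0.38 for tau on the control diet, −0.61 to −0.52 for tau on the acetate diet, 0.21 to 0.38 for acetate after PBS, −0.64 to −0.31 for acetate after tau, and −0.94 to −0.59 for the interaction. In these fits 39 estimates of uncalled members changed sign, counted by member, comparison and mouse left out. For tau on the control diet the ranges were −0.073 to 0.12 (*Neurod1*), −0.67 to 0.21 (*Top2a*), −0.16 to 0.17 (*Dsp*), −0.22 to 0.084 (*Prox1*), −0.27 to 0.091 (*C1ql2*) and −0.41 to 0.030 (*Sox11*). For tau on the acetate diet they were −0.28 to 0.090 (*Mki67*) and −0.057 to 0.13 (*Dsp*). For acetate after PBS they were −0.40 to 0.037 (*Sox11*), −0.077 to 0.11 (*Neurod1*) and −0.12 to 0.17 (*Prox1*). For acetate after tau *Top2a* ran from −0.093 to 0.18, and was −0.00018 with DESeq2 on 12 mice. For the interaction they were −0.15 to 0.18 (*Dsp*), −0.17 to 0.19 (*C1ql2*), −0.028 to 0.16 (*Neurod1*) and −0.0038 to 0.30 (*Prox1*). The cause was not tested.

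Same-numbered mice did not deviate together (correlations of deviations from −0.105 to 0.144). Whether they share a litter or a batch is not labelled, and these correlations cannot decide it. With the number as a block, *Dcx* was 0.18, −0.56, 0.28, −0.45 and −0.73 over the comparisons in the order above (adjusted p = 0.794, 0.183, 0.294, 0.298 and 0.112), and the block changed no call. Depth limits *Eomes*, *Igfbpl1*, *Top2a* and *Mki67*, and the spread between 3 mice limits the rest.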
